A study of Rattus norvegicus with 16 samples.

Results

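Star, Cyp17a1, Sox9 and Clu, 4 genes known as markers of the somatic cells of the testis, were measured in mRNA libraries of sorted rat germ cells (GCs). They were chosen by name and are 4 of the 26560 genes in the count tables. Star (ENSRNOG00000015052) and Cyp17a1 (ENSRNOG00000020035) mark Leydig cells, whereas Sox9 (ENSRNOG00000002607) and Clu (ENSRNOG00000016460) mark Sertoli cells. All 4 were found in the tables on the chromosome given for them, and all 4 passed a filter on the mean count (1 or more), as did 19446 genes in all. RNA came from 8 male GCS-eGFP rats of the Sprague-Dawley strain, a line whose GCs carry green fluorescent protein (the promoter of the transgene is not given in the sources used here). From weaning to 19 weeks of age, 4 rats ate a high fat diet (HFD), in which fat supplied 40% of calories by the sample labels, and 4 ate a control diet (CD), in which it supplied 10%. The paper gives a higher share of fat for the HFD than the labels do, and the same share for the CD. Testes were dissociated with collagenase and cells with green fluorescence were collected by FACS, so that each library is one rat's sorted cells. The germ cell label could not be checked here on other genes, since the tables hold no gene symbols and other markers of GCs or somatic cells were not analysed. The paper reports its own purity check of sorted cells by RT-qPCR against whole testis. That check covered the germ cell gene Vasa, the Sertoli cell genes Cdkn1b and Sox9 and a Leydig cell gene. Its values were not used here.

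Leydig cells lie between the seminiferous tubules and make testosterone from cholesterol. Sertoli cells line the tubules, nurse the developing GCs and secrete much of the fluid and protein around them. A sort on a germ cell reporter is meant to leave both cell types behind, and the comparison asks how much RNA of their marker genes the sorted samples still held and whether that amount differed with diet. In such bulk samples, fewer cells of a type and less RNA per cell cannot be told apart. The counts also do not show which cells of a sample the RNA came from.

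Transcripts of all 4 genes were counted in all 8 libraries. In CPM (counts relative to library size, scaled by TMM factors), Clu was at 6.98 to 24.8, Star at 1.95 to 5.02, Cyp17a1 at 0.344 to 1.90 and Sox9 at 0.0432 to 0.386. The means on the HFD were lower for Star, Cyp17a1 and Clu and higher for Sox9, but no gene passed the adjusted test and for none did the HFD and CD libraries separate. The rats differed widely within each diet, by more than most genes of similar count for Star, Cyp17a1 and Clu. Library totals were between 38633043 and 62038805 counts. Pearson correlations between libraries, after variance stabilisation, were between 0.990 and 0.997, and average linkage clustering first parted 2 libraries, CD replicates 1 and 2, from the rest.

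Star encodes the steroidogenic acute regulatory protein, which carries cholesterol into the mitochondrion for steroid synthesis. On the rn5 genome the gene occupies chr16:70698593-70705478 on the minus strand, with 7 exons of 3396 bases in all, of which 1 exon holds 2581. The HFD libraries held 85, 275, 120 and 95 Star counts in replicates 1 to 4, and the CD libraries 147, 135, 105 and 232. After scaling these were 2.09, 4.10, 2.72 and 2.08 CPM on the HFD and 3.56, 3.70, 1.95 and 5.02 CPM on the CD. CD replicate 4 was the highest library and CD replicate 3 the lowest, so the range of the HFD lay inside that of the CD. The HFD mean was 2.75 ± 0.949 CPM and the CD mean 3.56 ± 1.25 CPM (SD, n = 4 rats per diet).

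The Star values have a limit of annotation. The next gene, ENSRNOG00000014875, ends 756 bases away on the opposite strand, between 70676024 and 70697836, and had 12381 to 27179 counts per library. Star had only 0.477% to 1.24% as many counts. The kit named in the labels does not mark strand, whereas the counting kept the reverse strand only, and which of these describes the reads was not settled here. If the reads carry no strand, those running on from this neighbour could not be told apart from reads of Star. The neighbour varied less between libraries (340 to 417 CPM), and the Pearson correlation of its log2 CPM with that of Star was -0.39 over the 8 libraries. Its part in the Star counts was not tested.

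Cyp17a1 encodes the cytochrome P450 that turns progestogens into androgen precursors. It lies at chr1:273852190-273858192 on the minus strand and has 8 exons of 1719 bases in all. HFD replicates 1 to 4 had 14, 72, 84 and 28 Cyp17a1 counts, and CD replicates 1 to 4 had 72, 44, 44 and 70. The scaled levels were 0.344, 1.07, 1.90 and 0.613 CPM on the HFD and 1.74, 1.21, 0.819 and 1.51 CPM on the CD. HFD replicate 3 was the highest and HFD replicate 1 the lowest of the 8 libraries, a 5.54-fold range that enclosed all CD libraries. The HFD rats averaged 0.984 ± 0.684 CPM and the CD rats 1.32 ± 0.401 CPM (SD, n = 4 per diet).

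Sox9 encodes the transcription factor that directs and maintains the Sertoli cell fate. The gene lies at chr10:100965137-100968386 on the plus strand, with 3 exons of 1524 bases in all, and the nearest other listed gene is 401970 bases away. Reads outside these exons were not counted, and whether the exons make up the whole transcript was not checked. Sox9 had the fewest counts of the markers. HFD replicates 1 to 4 had 6, 13, 17 and 6 counts, and CD replicates 1 to 4 had 2, 6, 5 and 2. Counts this small carry wide error: the exact 95% Poisson interval was 0.242 to 7.22 around 2 counts and 9.90 to 27.2 around 17 counts, which covers counting error only. In CPM the HFD libraries were at 0.147, 0.194, 0.386 and 0.131, and the CD libraries at 0.0485, 0.165, 0.0930 and 0.0432. HFD replicates 2 and 3 exceeded all CD libraries, while CD replicate 2 lay above HFD replicates 1 and 4. HFD libraries averaged 0.214 ± 0.117 CPM against 0.0873 ± 0.0561 CPM for those of the CD (SD, n = 4 per diet), a ratio of 2.46 that rests on 42 and 15 counts in all.

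Clu encodes clusterin, a secreted chaperone that Sertoli cells release in large amounts and that several other tissues also make. It lies at chr15:48926516-48939266 on the minus strand and has 9 exons of 1685 bases in all. It was the most abundant of the markers, as HFD replicates 1 to 4 had 482, 996, 845 and 319 counts, and CD replicates 1 to 4 had 563, 394, 597 and 1148. The scaled levels were 11.8, 14.8, 19.2 and 6.98 CPM on the HFD and 13.6, 10.8, 11.1 and 24.8 CPM on the CD. The lowest library was HFD replicate 4 and the highest CD replicate 4, and the other HFD libraries lay among those of the CD. The HFD mean of 13.2 ± 5.12 CPM and the CD mean of 15.1 ± 6.61 CPM (SD, n = 4 per diet) differed by less than the SD of either group.

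**Figure D1:**
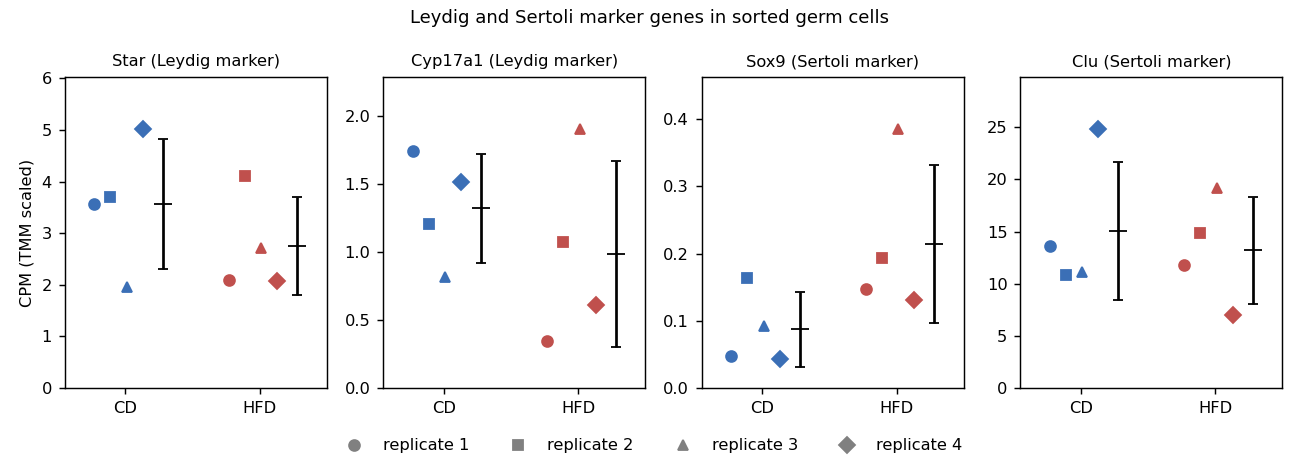
Level of each marker gene in CPM (vertical axis from 0, TMM scaled) in the 4 CD and 4 HFD libraries, 1 symbol shape per replicate number, with the mean and SD of each group as a bar. The groups overlapped for every gene. Sox9 had its highest value, 0.386 CPM, in HFD replicate 3, and Star and Clu theirs in CD replicate 4, at 5.02 and 24.8 CPM.

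Summed over the Leydig genes Star and Cyp17a1, the libraries held 2.43 to 5.17 CPM on the HFD and 2.77 to 6.53 CPM on the CD. Sox9 and Clu together came to 7.12 to 19.5 CPM on the HFD and 10.97 to 24.9 CPM on the CD, nearly all of it Clu. The ranges of the groups overlapped in both sums.

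To compare the genes with one another, counts were also divided by exon length. Over the 8 libraries, Clu had 8.40 ± 3.30, Star 0.928 ± 0.329, Cyp17a1 0.670 ± 0.320 and Sox9 0.0990 ± 0.0714 RPKM (CPM per kilobase of exons, mean ± SD, n = 8). The median of all genes analysed was 1.56 RPKM and the upper quartile 13.2 RPKM. Clu was therefore the only one above the median gene, and none reached the upper quartile on average. By library, Clu exceeded 61.1% to 76.4% of genes, Star 38.7% to 48.8%, Cyp17a1 26.2% to 46.0% and Sox9 7.09% to 28.2%.

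**Figure D2:**
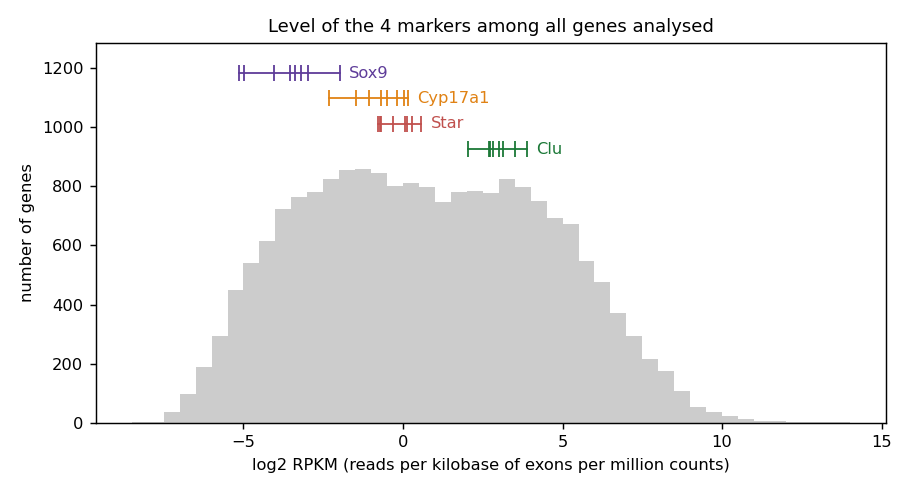
Histogram of all 19446 genes by log2 RPKM (grey, vertical axis in number of genes), with a tick for each of the 8 libraries on a horizontal line for each marker, placed above the histogram only to keep the lines apart. Clu lay to the right of the middle of the distribution, Star and Cyp17a1 near to it and overlapping, and Sox9 in the lower tail.

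The order Clu, Star, Cyp17a1, Sox9 held in 7 of 8 libraries, and in HFD replicate 3 Cyp17a1 was above Star. Per kilobase, Clu was 5.88-fold to 14.2-fold above Star, with a mean log2 ratio of 3.16 ± 0.444 (SD, n = 8 libraries; two-sided exact permutation test over sign changes, p = 0.0078, the smallest possible, adjusted p = 0.0117 over 3 pairs). Cyp17a1 was above Sox9 in 8 of 8 libraries, with a mean log2 ratio of 2.89 ± 1.403 (SD, n = 8; exact permutation test, p = 0.0078, adjusted p = 0.0117). Both of these steps were larger than their spread between libraries. The 3 pairs tested were neighbours in the order of mean level in these same libraries, so their p-values are no independent evidence for that order.

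Star and Cyp17a1 were much closer, with a mean log2 ratio of 0.57 ± 0.629 (SD, n = 8; exact permutation test, p = 0.0391, adjusted p = 0.0391) and Star higher in 7 of 8. This step was smaller than its spread, and it lost the 0.05 threshold when HFD replicate 1, 2 or 4 or CD replicate 2 or 4 was left out (exact permutation test on 7 libraries, adjusted p = 0.0781 in each case). The order of the Leydig genes also rests on the gene models, since the Star model has 3396 exon bases and that of Cyp17a1 1719. The step from Cyp17a1 to Sox9, whose model has 1524 exon bases, rests on the gene models as well. Without division by length, Star was above Cyp17a1 in 8 of 8 libraries with a mean log2 ratio of 1.56.

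The effect of diet was tested by a quasi-likelihood fit in edgeR over all 19446 genes. For Star the log2 fold change (HFD over CD) was -0.36 with a standard error (SE) of 0.290 and a 95% interval from -0.99 to 0.28 (edgeR, adjusted p = 0.829). Cyp17a1 gave a log2 fold change of -0.41 (SE 0.430, interval -1.35 to 0.53, edgeR adjusted p = 0.841). For Clu the value was -0.19 (SE 0.313, interval -0.88 to 0.49, edgeR adjusted p = 0.893). The intervals of these 3 genes included 0, and at their lower ends they would allow levels well below those of the CD, so that they do not show equal expression. Two-sided exact permutation tests of log2 CPM gave p = 0.400 for Star, p = 0.314 for Cyp17a1 and p = 0.686 for Clu, where 4 against 4 libraries cannot go below 0.0286.

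Sox9 had a log2 fold change of 1.30 (SE 0.582, 95% interval 0.02 to 2.57), and after adjustment over all genes it did not pass (edgeR, unadjusted p = 0.0468, adjusted p = 0.829). The exact permutation test gave p = 0.0857. With the replicate number as a block, the edgeR interval was -0.11 to 2.71 and included 0 (edgeR, unadjusted p = 0.0672). With DESeq2, whose prior shrinks imprecise estimates towards 0, the log2 fold change of Sox9 was 0.18 (DESeq2, unadjusted p = 0.0590, adjusted p = 0.906). Without the prior it was 1.31 (DESeq2, unadjusted p = 0.0539, adjusted p = 0.902). Leaving out HFD replicate 3, the library with the most Sox9, lowered the log2 fold change to 0.88 with an unadjusted edgeR p of 0.181, and leaving out CD replicate 2 raised it to 1.72 with an unadjusted edgeR p of 0.0207. The direction of Sox9 was therefore the same in these fits, and its side of an unadjusted threshold was not.

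Of the 4 markers, none passed the adjusted edgeR test, as was the case for all genes (0 of 19446, or 0%). At an unadjusted p under 0.05 the markers had 1 of 4, Sox9, against a background of 725 genes or 3.73%. That background moved with single libraries, to 3379 genes without CD replicate 4 and 412 without CD replicate 1. DESeq2 called 6 genes with shrinkage and 7 without, none of them a marker. The HFD and CD libraries of 0 of the 4 markers were free of overlap, against 2.18% of all genes. Log2 fold changes were below 0 for 3 of 4 markers with a median of -0.28, and for 51.2% of all genes with a median of -0.0061. In size, the change of Sox9 exceeded that of 96.4% of genes, Cyp17a1 80.0%, Star 76.3% and Clu 56.1%, on a scale where genes with few counts spread widely. Without CD replicates 1 and 2, which stood apart, the log2 fold changes were -0.33 for Star, -0.23 for Cyp17a1, 1.60 for Sox9 and -0.44 for Clu, with none past the adjusted threshold of the edgeR test.

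**Figure D3:**
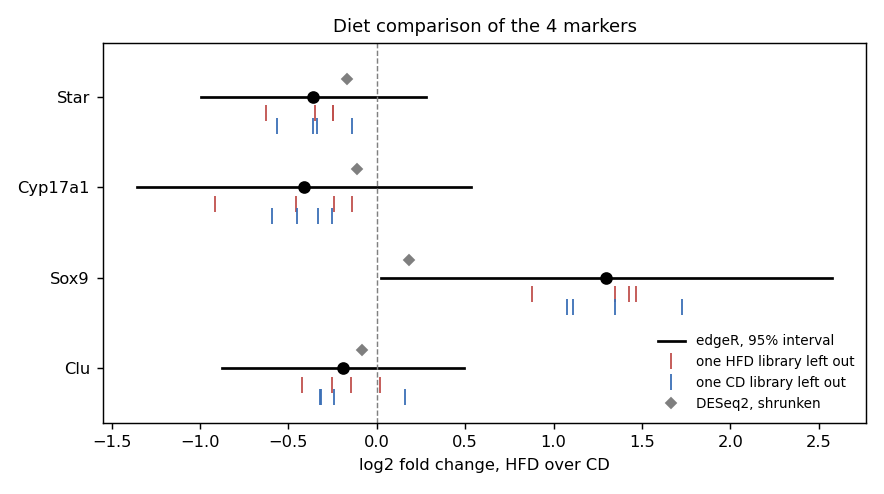
Log2 fold change of HFD over CD (horizontal axis) for each marker, with the edgeR estimate as a black point and its 95% interval as a line. Red and blue ticks are edgeR estimates with 1 HFD or 1 CD library left out, and grey diamonds are DESeq2 estimates with shrinkage. The intervals of Star, Cyp17a1 and Clu crossed 0, that of Sox9 began at 0.02, and 2 ticks of Clu lay above 0.

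The spread between rats on the same diet was set beside that of other genes of similar mean count (within a factor of 2). Clu had a within-diet SD of 0.589 in log2 CPM, where the median of 3131 genes of similar count was 0.165, and it varied more than 99.2% of them. For Star the SD was 0.516 against a median of 0.253 and exceeded that of 94.3% of 2904 genes. Cyp17a1 varied more than 97.0% of 3018 such genes, with an SD of 0.810 against a median of 0.366. Sox9, with an SD of 0.729 against 0.821, lay below the median gene of its count and above 40.1% of 2648.

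Over all 8 libraries, counting error was a small share of the spread for all but Sox9. That spread includes any difference between the diets. The coefficient of variation of CPM over the 8 libraries was 39.3% for Clu, where Poisson counting of its mean count alone would give 3.87%. The same values were 35.5% and 8.19% for Star, 47.7% and 13.7% for Cyp17a1, and 72.1% and 37.5% for Sox9. The variance of the Sox9 counts was 2.85 times that of counting among HFD libraries and 1.46 times among CD libraries. For Cyp17a1 it was 20.2 and 5.93 times, for Star 17.8 and 22.6 times and for Clu 89.3 and 131.3 times. The spread between rats was thus nearest to counting error in Sox9 and farthest above it in Clu.

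**Figure D4:**
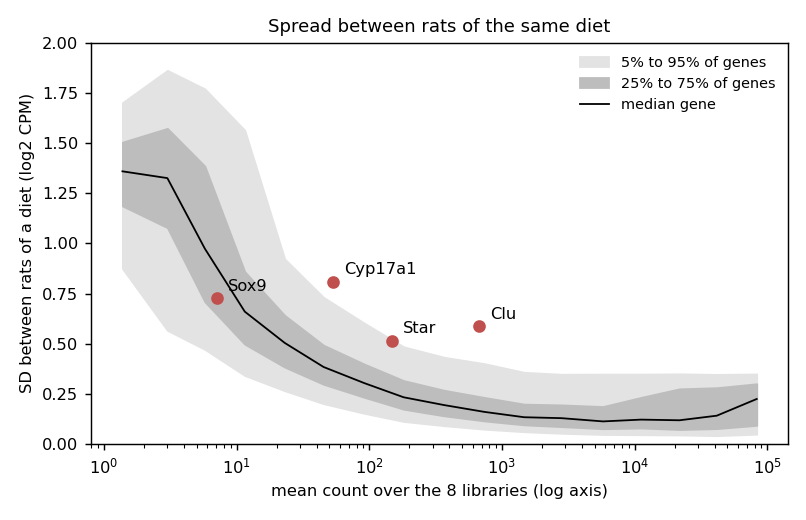
SD of log2 CPM between rats of the same diet (vertical axis) against mean count (horizontal log axis) for the 4 markers (red points), with the median gene as a black line and an inner and an outer grey band of genes (percentile limits in the legend). Clu, Star and Cyp17a1 lay at or above the upper edge of the outer band, at SDs of 0.589, 0.516 and 0.810, and Sox9 lay inside the inner band at 0.729.

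Whether the markers of one cell type rose and fell together was examined over the 8 libraries, with both diets pooled. For the Leydig genes, Star and Cyp17a1, Pearson's r was 0.66 (exact permutation p = 0.0735, adjusted p = 0.218 over 6 pairs) and Spearman's rho 0.50 (exact permutation p = 0.216, adjusted p = 0.432). Without the 2 libraries farthest from the median of Star, r was 0.67. The r of this pair was higher than that of Star with 95.8% of all genes, and for Star with Clu that share was 95.6%.

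The Sertoli genes, Sox9 and Clu, gave r of -0.12 (exact permutation p = 0.786, adjusted p = 0.862) and rho of -0.024 (exact permutation p = 0.977, adjusted p = 0.977), and r was -0.12 also without the 2 libraries farthest in Sox9. HFD replicate 3 was high in both genes, whereas CD replicate 4 had the most Clu and the least Sox9 of all libraries. Without CD replicate 4 alone, r was 0.40, while without CD replicate 4 and HFD replicate 3, the 2 farthest libraries, it was -0.12, so that no sign could be given to this pair.

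Clu had its higher r with the Leydig genes, which did not pass either. With Star its r was 0.66 and its rho 0.62 (exact permutation p = 0.0760 and p = 0.115, adjusted p = 0.218 and p = 0.345), and with Cyp17a1 0.61 and 0.62 (exact permutation p = 0.109 and p = 0.115, adjusted p = 0.218 and p = 0.345). Without the 2 libraries farthest from the median of the first gene, r was 0.45 for Star with Clu and 0.59 for Cyp17a1 with Clu. Sox9 with Star gave r of -0.30 and rho of -0.024 (exact permutation p = 0.463 and p = 0.977, adjusted p = 0.695 and p = 0.977), or r of -0.13 without the 2 farthest libraries. Sox9 with Cyp17a1 gave r of -0.07 and rho of 0.048 (exact permutation p = 0.862 and p = 0.935, adjusted p = 0.862 and p = 0.977), or r of 0.06 without them. None of the 6 pairs passed after adjustment. Both genes of a pair share the depth and scaling of each library, and with 8 libraries these values are weak evidence in either direction.

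**Figure D5:**
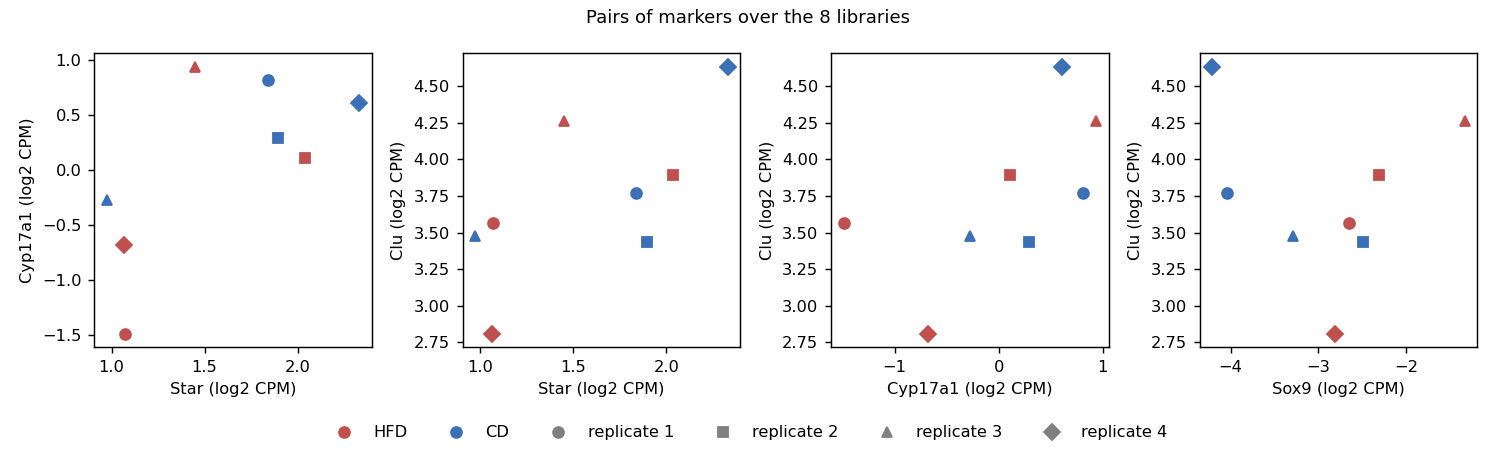
Log2 CPM of pairs of markers, with each point a library (red HFD, blue CD, shape for the replicate number). Star with Cyp17a1, Star with Clu and Cyp17a1 with Clu leaned upwards (r of 0.66, 0.66 and 0.61), while Sox9 with Clu had no clear slope (r of -0.12).

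The balance between markers within a library needs no scaling for depth. It was compared between diets for the 6 pairs, after the levels had been seen. For the log2 ratios 0.5 was added to each count, which weighs most on the small Sox9 counts. Per 100 Clu counts, HFD replicates 1 to 4 had 1.24, 1.31, 2.01 and 1.88 Sox9 counts, whereas CD replicates 1 to 4 had 0.355, 1.52, 0.838 and 0.174. Of the CD values, 3 were below all of the HFD, and CD replicate 2 was inside their range. The log2 ratio of Sox9 to Clu was 1.43 higher on the HFD (exact permutation p = 0.0857, adjusted p = 0.171).

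The log2 ratio of Cyp17a1 to Sox9 averaged 2.00 ± 0.572 in HFD and 3.87 ± 1.13 in CD libraries (SD, n = 4 per diet). All 4 HFD libraries lay below all CD libraries, a difference of -1.87 (exact permutation p = 0.0286, the smallest possible, adjusted p = 0.171). Neither Cyp17a1 nor Sox9 separated the diets on its own, and the share of other gene pairs whose ratios separate was not computed. Star to Sox9 differed by -1.58 with 3 of 4 HFD libraries below all of the CD (exact permutation p = 0.0571, adjusted p = 0.171). The 3 ratios with Sox9 share its small counts and are not independent of each other, and none passed after adjustment.

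The ratios without Sox9 were closer between diets. Cyp17a1 counts per 100 Star counts were 16.5, 26.2 and 29.5 in HFD replicates 1, 2 and 4, and 49.0, 32.6, 41.9 and 30.2 in CD replicates 1 to 4. HFD replicate 3 had 84 Cyp17a1 counts to 120 Star counts, the highest share of the 8 libraries. The HFD libraries thus held both the lowest and the highest balance of the Leydig genes, and the log2 ratio of Star to Cyp17a1 differed by 0.29 (exact permutation p = 0.543, adjusted p = 0.629). Star to Clu differed by -0.16 (exact permutation p = 0.629, adjusted p = 0.629) and Cyp17a1 to Clu by -0.44 (exact permutation p = 0.429, adjusted p = 0.629), the latter by only -0.060 without HFD replicate 1.

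The genes whose levels over the 8 libraries were most like each marker were looked up among about 10290 genes whose mean count was 100 or more. For Star this was ENSRNOG00000008074 on chromosome 8 (r of 0.97), and 17 genes had r above 0.9. For Cyp17a1 it was ENSRNOG00000020093 on chromosome 19 (r of 0.96, with 6 above 0.9). Sox9 was most like ENSRNOG00000016622 on chromosome X (r of 0.94, with 3 above 0.9), and Clu most like ENSRNOG00000000571 on chromosome 20 (r of 0.97, with 26 above 0.9). Cyp17a1 and Sox9 were themselves below that mean count and so could not be found. As the best of many genes over 8 libraries, these values are descriptions with no test.

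Small RNA libraries of the same diets, 4 per group, were searched for piRNAs, the small RNAs that guide Piwi proteins in GCs, at the marker genes. Of 58165 piRNA entries, listed at 904707 places on rn5, 0 lay within the span of Star, Cyp17a1, Sox9 or Clu, so that no piRNA count exists for them in these tables.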

How the data were processed

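The authors aligned single end reads to rn5 with STAR 2.3.0 (submitters' processing notes) and deposited raw counts of uniquely aligned reads per Ensembl gene, made with featureCounts 1.4.6 per the file headers, on the reverse strand only. The kit named in the labels does not mark strand, and this conflict was not settled here, so that reads of opposite-strand neighbours may or may not be counted. Diet and replicate number came from the sample labels, and 4 HFD and 4 CD mRNA libraries were compared. The 4 genes and all lists were chosen with earlier results of these data known. The genes were found by identifier and chromosome, and RefSeq places the 4 symbols on the same chromosomes. No identifier of the 26560 had a match in the reference's gene table (0 matches), so that 6 planned marker lists were not used, and no promoter entry existed for the 4 genes.

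Genes whose mean count was 1 or more entered the test of edgeR 4.0.16 in R 4.3.3 (TMM, quasi-likelihood test on diet alone, Benjamini-Hochberg adjustment, threshold 0.05), which was checked on simulated data, and DESeq2 1.42.0 served as an alternative. The SE of an edgeR log2 fold change was set to the absolute change over the root of F. CPM was TMM scaled, RPKM used the exon length in the tables, and 0.5 counts were added before log2. Permutation tests were exact and two-sided, over 70 labellings of the diets, 256 sign changes or 40320 pairings. Those of log2 CPM between diets were run in R, and the others in Python with numpy 2.4.6. Ranks for Spearman's rho came from scipy 1.17.1. Genes named were the 4 markers and, for each, the gene of highest r with a mean count of at least 100. ENSRNOG00000014875 was named after its counts were seen. The ratio tests, the correlations with 1 library left out and the fit without the libraries that stood apart were added after seeing the data.

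The rats are the replicates. Replicate numbers are shared between diets in the labels, but no source says that they pair rats. No pair of libraries was a duplicate (lowest chi-square per degree of freedom 9.09). Alternatives were size factors, count filters, a robust fit, the replicate block, no length division and leaving out each library. Of the deposited small RNA counts, only piRNA entries were searched, and miRNA and repeat counts were not used.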

Additional observations from a re-analysis of the deposited data

How the results depend on the processing

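The signs of Star, Cyp17a1 and Sox9 held in all alternatives, with log2 fold changes of -0.63 to -0.14 for Star and -0.92 to -0.11 for Cyp17a1 (17 fits each) and 0.18 to 1.72 for Sox9 (16 fits, as at a mean count of at least 10 Sox9 was not tested), and none passed an adjusted test (lowest adjusted p 0.720, 0.734 and 0.383 by edgeR). The smallest changes of Cyp17a1 and Sox9 in these ranges came from DESeq2 with shrinkage. With 1 library left out, Star ran from -0.63 (without HFD replicate 2) to -0.14 (without CD replicate 4). Cyp17a1 ran from -0.92 (without HFD replicate 3) to -0.14 (without HFD replicate 1), and Sox9 from 0.88 to 1.72. Clu ranged from -0.42 to 0.16 and was above 0 without HFD replicate 4 (0.02) or CD replicate 4 (0.16). Genes called were 0 to 1 with 1 library left out (1 without HFD replicate 4), against 6 with DESeq2 and shrinkage and 7 without shrinkage.

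The replicate block changed no adjusted call, while the unadjusted p of Sox9 rose from 0.0468 to 0.0672 (edgeR). With it the log2 fold changes were -0.35 for Star, -0.57 for Cyp17a1, 1.30 for Sox9 and -0.17 for Clu, with 0 genes called and 322 at an unadjusted p under 0.05 in place of 725 (edgeR). Without 1 library that count was 412 (without CD replicate 1) to 3379 (without CD replicate 4). Libraries with the same number did not deviate together over all genes (correlations -0.115 to 0.0289, and 1 of 4 correlated best with its own number). Whether they share more than a number, such as a litter or cohort, was not tested.

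With 1 library left out, the log2 ratio per kilobase was 3.07 to 3.25 for Clu over Star, 0.42 to 0.72 for Star over Cyp17a1 and 2.59 to 3.16 for Cyp17a1 over Sox9. The r of Star with Sox9 ran from -0.44 to 0.046 (above 0 without CD replicate 4), of Cyp17a1 with Sox9 from -0.55 to 0.14 (above 0 without HFD replicate 1 or CD replicate 1 or 4) and of Sox9 with Clu from -0.55 to 0.40. Centred on the diet means, r was 0.33 for Cyp17a1 with Sox9 and 0.015 for Sox9 with Clu, and without the 2 libraries farthest in Cyp17a1 it was 0.058 for Cyp17a1 with Sox9. The difference of the Star to Cyp17a1 ratio ran from -0.0053 (without HFD replicate 1) to 0.68, and that of Star to Clu from -0.32 to 0.039 (above 0 without HFD replicate 3 or CD replicate 2). The other ratios kept their sign, with -1.92 to -1.16 for Star to Sox9, -2.23 to -1.54 for Cyp17a1 to Sox9, -0.64 to -0.060 (without HFD replicate 1) for Cyp17a1 to Clu and 0.93 (without CD replicate 4) to 1.90 for Sox9 to Clu. The causes of these reversals were not tested. Low counts limit Sox9 most, with 57 in 8 libraries.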
